A study of Mus musculus with 11 samples.

Results

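MHC class I presentation genes were examined in keratinocytes (KCs) and dendritic epidermal T cells (DETCs) of mice with and without Langerhans cells (LCs). The group holds 10 genes named by symbol, all 10 of which were found among the 52550 genes of the deposited table. It consists of the heavy chain genes H2-K1, H2-D1 and H2-T23, the light chain gene B2m, the transporter genes Tap1 and Tap2, the loading gene Tapbp, the regulator Nlrc5, the peptidase gene Erap1 and the lipid-presenting relative Cd1d1. All 10 passed the filter on low values that left 14419 genes for testing, a CPM (read count scaled to the size of the library) above 1 in at least 2 libraries.

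The LC-/- mice carried huLangerin-DTA, a transgene that drives the diphtheria toxin subunit A from the human langerin promoter, so that LCs are missing from birth. The WT mice were littermates without LC loss, and all animals were female and of a single age. The labels call the LC-/- condition DTA, and they name no other allele or agent for any group. Both cell types were sorted from trypsinised flank epidermis as MHC-II-, langerin- and c-kit- cells, KCs as CD45- and DETCs as CD45+. KCs came from 3 WT and 3 LC-/- mice and DETCs from 3 WT and 2 LC-/- mice. Animals are named W1, W2 and W3 (WT) and L1, L2 and L3 (LC-/-), sorted by label number, and there was no DETC library of L1. The labels do not say that a shared number means a shared animal.

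Class I molecules are displayed by almost all nucleated cells. A heavy chain, B2m and a short peptide form the complex that is carried to the cell surface, where CD8 T cells and natural killer receptors read it. Peptides cut by the proteasome are pumped into the endoplasmic reticulum by the Tap1 and Tap2 transporter, trimmed by Erap1 and placed on the heavy chain with the help of Tapbp (tapasin). Nlrc5 switches on many of these genes from within the nucleus, and interferon-gamma, acting in part through Irf1, raises them further. Cd1d1 pairs with B2m as well but holds lipids. In the epidermis KCs are the cells around which DETCs, γ/δ T cells with a nearly invariant receptor, extend their dendrites.

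The promoters of H2-K1, H2-D1 and B2m are shown because these 3 genes carried most of the class I reads, and to set the control regions of the heavy chains beside that of their partner chain. The sequences are from RefSeq (GRCm38.p6) and run 5′ to 3′ from 250 bases before to 50 bases after the start of the gene used there. For H2-D1 the whole window lies downstream of the gene start in the GENCODE annotation (35262730). Capitals mark matches on either strand to GGGATTCCC, the core letters of a κB-type element, to GAANNGAAA, an interferon-response type element, to TGACG, part of a cAMP-response type element, and to CCAAT, the box read by NF-Y.
H2-K1 promoter, chr17:34000298-34000597, minus strand: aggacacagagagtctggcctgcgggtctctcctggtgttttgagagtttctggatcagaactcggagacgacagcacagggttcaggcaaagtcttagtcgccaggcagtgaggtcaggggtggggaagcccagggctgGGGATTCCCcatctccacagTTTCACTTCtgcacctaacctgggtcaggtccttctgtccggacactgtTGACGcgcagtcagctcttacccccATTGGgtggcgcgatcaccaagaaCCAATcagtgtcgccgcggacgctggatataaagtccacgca
H2-D1 promoter, chr17:35262844-35263143, plus strand: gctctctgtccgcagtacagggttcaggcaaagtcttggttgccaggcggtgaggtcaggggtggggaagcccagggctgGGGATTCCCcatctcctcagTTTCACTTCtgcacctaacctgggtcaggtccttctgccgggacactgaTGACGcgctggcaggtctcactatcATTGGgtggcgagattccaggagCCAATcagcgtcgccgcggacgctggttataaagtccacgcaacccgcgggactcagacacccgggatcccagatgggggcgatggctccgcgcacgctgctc
B2m promoter, chr2:122147437-122147736, plus strand: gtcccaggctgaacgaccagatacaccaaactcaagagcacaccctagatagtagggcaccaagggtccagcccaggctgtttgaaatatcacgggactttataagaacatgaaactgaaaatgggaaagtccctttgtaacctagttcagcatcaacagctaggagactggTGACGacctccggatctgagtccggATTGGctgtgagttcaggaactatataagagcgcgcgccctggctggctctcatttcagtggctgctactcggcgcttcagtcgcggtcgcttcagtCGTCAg
H2-K1 and H2-D1 held GGGATTCCC, GAANNGAAA and TGACG once each and CCAAT at 2 places, in the same order. The stretch that could be aligned between both was 228 columns long with 1 gap, and 206 bases were identical (90.4%). In the B2m window TGACG was found 2 times and CCAAT once, and neither of the longer motifs was found letter for letter. The search for GAANNGAAA passes over close spellings, such as gaaactgaaa in the B2m window. Of the 32851 mouse promoters of the same length, 0.353% held GGGATTCCC, 7.52% GAANNGAAA, 20.8% TGACG and 37.4% CCAAT. Only 11 promoters (0.0335%) held both of the longer motifs. Promoter windows were at hand for 7 of the 10 genes. Those of Tap1, Tapbp, H2-T23 and Erap1 held neither GGGATTCCC nor GAANNGAAA. A match describes the letters of the window and is no measured binding site, and a missing match does not mean that such an element is absent.

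Poly-A RNA was sequenced, and 13491075 to 19750440 reads per library fell on genes. The values below are normalized counts, the reads of a gene divided by the size factor of its library. A count of 0 allows up to 3 reads, and this floor covers counting error only. Cd207, which encodes langerin, had 6, 29 and 18 reads in WT KCs and 0 reads in all 3 LC-/- KC libraries. In DETCs it had 20, 20 and 48 reads in WT and 0 and 4 reads in LC-/- libraries. DETC libraries carried DETC receptor transcripts, with Trdc between 23250 and 39123, against at most 2.05 in KC libraries. They also held keratinocyte RNA. The median of 18 keratinocyte markers reached 15.3%, 14.9% and 18.0% of the WT KC mean in DETC libraries W1, W2 and W3, and 23.5% and 16.2% of the LC-/- KC mean in L2 and L3. Single markers ranged from 5.22% to 282% of the KC mean. The summed level of 6 α/β T cell markers was 9609 to 11627 in WT DETCs and 7415 and 13672 in LC-/- DETCs, against 89.3 to 166 in KCs. The share of these cells and of keratinocyte RNA was not removed from the values. In bulk samples fewer cells of a type and less RNA per cell cannot be told apart.

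B2m and the classical heavy chains were by far the most abundant members in both cell types. Per kilobase of exon, which allows levels of different genes to be compared, WT KCs held 21007 normalized counts of B2m, 6137 of H2-K1 and 5695 of H2-D1. Next came H2-T23 with 531 per kilobase, Tapbp with 499, Tap1 with 324, Nlrc5 with 307, Tap2 with 264, Erap1 with 146 and Cd1d1 with 1.25. In WT DETCs the order per kilobase began with B2m (26264), H2-D1 (10541) and H2-K1 (7543), with H2-D1 above H2-K1. H2-T23 (935), Tapbp (789) and Tap2 (353) followed, then Tap1 and Erap1, both at 239, Nlrc5 (172) and Cd1d1 (38.5). Neighbours such as Tap1 and Nlrc5 in KCs, or Tap1 and Erap1 in DETCs, overlapped in their WT libraries per kilobase and cannot be ranked, and no test was run between genes. B2m and 7 heavy chain genes (H2-K1, H2-D1, H2-T23, H2-Q4, H2-Q6, H2-Q7 and H2-T22) together took 0.431% to 0.483% of all gene reads in WT KCs and 0.521% to 0.577% in WT DETCs. Heavy chain genes resemble each other to differing degrees and vary between mouse strains, while reads were aligned to a single reference genome. How reads matching several copies were treated is not given in the sources used here, so the split between heavy chains is uncertain.

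**Figure D1:**
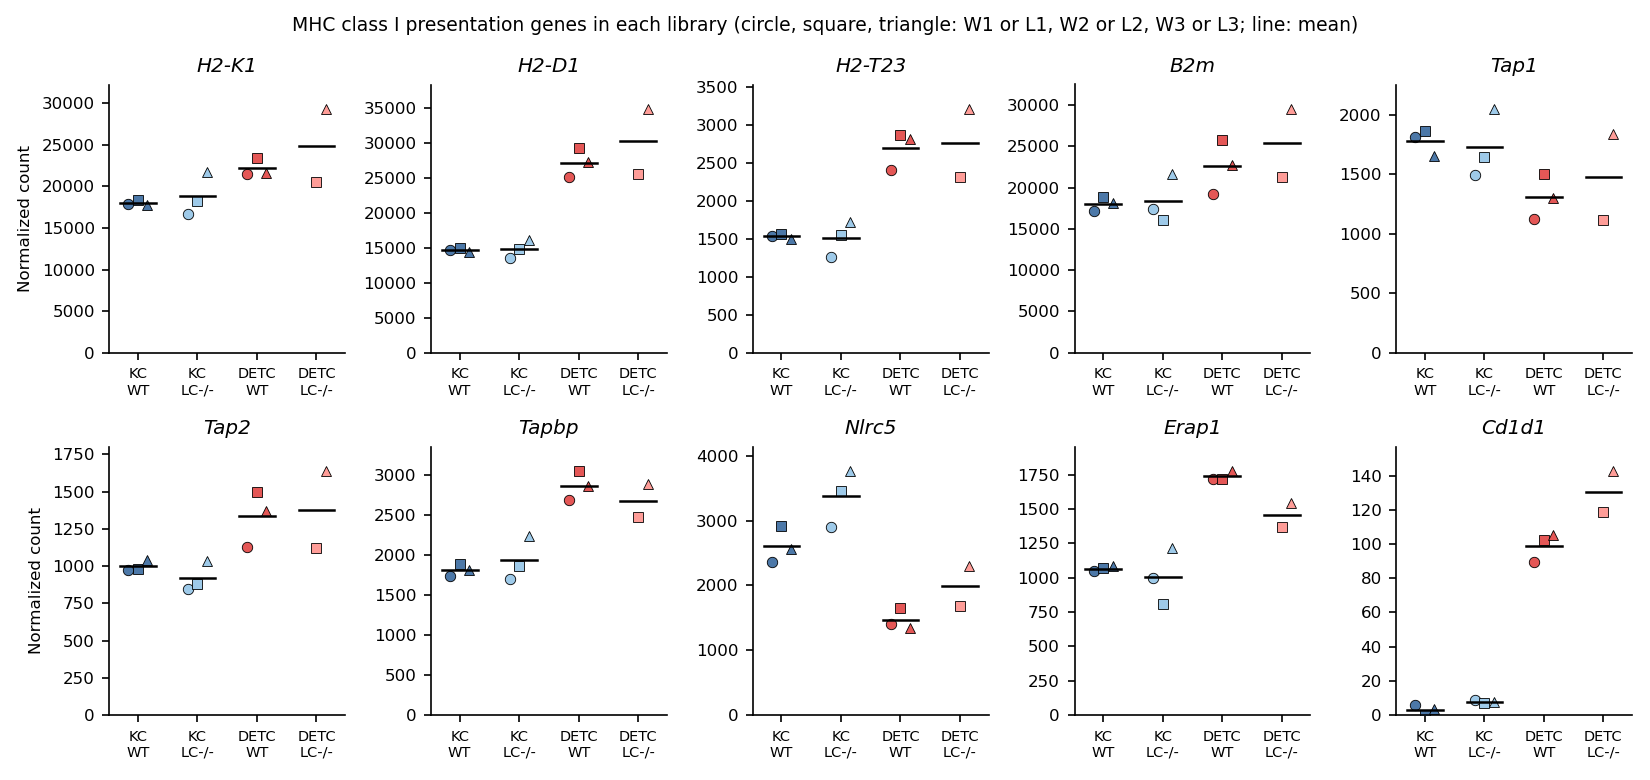
Normalized counts (linear axis from 0) of the 10 genes in each library, by cell type and genotype. Points are libraries, with the shape giving the mouse number, and lines are group means. In DETCs the 2 LC-/- libraries lie on either side of the WT libraries for H2-K1, H2-T23, Tap1 and Tap2, while both LC-/- libraries lie above the WT libraries for Nlrc5 and below them for Erap1.

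The first question was whether KCs that developed without LCs differ in class I genes. In KCs 0 of the 10 genes passed the test (limma, adjusted p under 0.05), while 7.23% of all tested genes did (1042 of 14419). At an unadjusted p under 0.05 there was 1 member, Nlrc5, which was also the 1 member called by DESeq2 and by edgeR. The median log2 difference of the 10 genes was 0.01, against -0.01 for all tested genes. Apart from Nlrc5 and Cd1d1, the differences between LC-/- and WT lay between -0.12 and 0.08 on the log2 scale of normalized count plus 1.

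The heavy chains of KCs lay close together in WT and were wider apart in LC-/- libraries. H2-K1, a classical heavy chain, had 17933, 18399 and 17763 normalized counts in WT libraries W1, W2 and W3, and 16657, 18254 and 21743 in LC-/- libraries L1, L2 and L3. L1 was below and L3 above all WT libraries. The log2 difference was 0.06 ± 0.11 (SE, 95% interval -0.22 to 0.33, limma adjusted p = 0.783). H2-D1, the other classical heavy chain of this group, had 14654, 14996 and 14408 in WT and 13606, 14809.8 and 16138 in LC-/- KCs. Again L1 was lowest and L3 highest, and the difference was 0.01 ± 0.08 (interval -0.18 to 0.20, limma adjusted p = 0.949). H2-T23 encodes Qa-1, the non-classical molecule that is read by the CD94 and NKG2 receptors. It had 1537, 1568 and 1499 counts in WT and 1266, 1557 and 1718 in LC-/- KCs, which overlapped (difference -0.03 ± 0.12, limma adjusted p = 0.905). B2m had 17208, 18842 and 18149 in WT and 17442, 16142 and 21601 in LC-/- KCs. The L2 library was lowest and the L3 library highest, with a difference of 0.02 ± 0.12 (interval -0.29 to 0.33, limma adjusted p = 0.968).

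The peptide supply genes of KCs showed no call either. Tap1, a chain of the peptide transporter, had 1812, 1864 and 1652 counts in WT and 1496, 1641 and 2048 in LC-/- KCs, so the LC-/- libraries spanned the WT range. Its difference was -0.05 ± 0.13 (limma adjusted p = 0.849). Tap2, the partner chain, had 974, 980.4 and 1038 in WT and 848, 883 and 1035 in LC-/- KCs. L1 and L2 were below all WT libraries and L3 among them (difference -0.12 ± 0.08, limma adjusted p = 0.430). Tapbp, which holds the empty heavy chain at the transporter, had 1736, 1884 and 1815 in WT and 1696, 1859.7 and 2239 in LC-/- KCs (0.08 ± 0.11, limma adjusted p = 0.675). L1 was just below and L3 above the WT range. Erap1 had 1046, 1069 and 1082 in WT and 995, 805 and 1219 in LC-/- KCs (-0.10 ± 0.15, limma adjusted p = 0.716). Its WT libraries were close to each other, and the LC-/- libraries lay on both sides of them.

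Nlrc5 was the member that differed most among those with a sizeable level. It had 2353, 2919 and 2554 counts in WT and 2904, 3454 and 3762 in LC-/- KCs, and the groups overlapped by a single pair, with L1 just below W2. WT KCs had a mean of 2609 ± 287 (SD, n = 3), and the mean of LC-/- KCs was 3373 ± 434 (SD, n = 3). This is a log2 difference of 0.37 ± 0.13 (interval 0.05 to 0.69) and 1.29-fold, at an unadjusted p of 0.0307 and an adjusted p of 0.144 by limma. On the recovered reads DESeq2 (adjusted p = 0.00885) and edgeR (adjusted p = 0.0351) called it higher, in tests that called 12.2% and 12.4% of all genes. Over all alternatives its adjusted p ranged from 0.00885 to 0.332, so the call rests on the test. Cd1d1 was near the floor in KCs, with 6, 0 and 4 reads in WT and 8, 7 and 7 reads in LC-/- libraries. It was the 1 member whose KC genotypes did not overlap, which 31.5% of all tested genes did not, and the difference was not called (limma adjusted p = 0.281).

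The same question was put to DETCs, in which 0 of the 10 genes passed the test against 3.56% of all genes (514 of 14419). DESeq2 and edgeR also called 0, and at an unadjusted p under 0.05 there were 2 members, Nlrc5 and Erap1. The median log2 difference of the 10 genes was 0.14, against 0.02 for all tested genes. Genotypes did not overlap for 3 members, Nlrc5, Erap1 and Cd1d1, and for 37.9% of all tested genes. With 2 LC-/- libraries the intervals were wide.

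Nlrc5 had 1404, 1644 and 1341 counts in WT DETC libraries W1, W2 and W3, and 1682 and 2294 in LC-/- libraries L2 and L3. L2 stood just above the highest WT library and L3 well above it. Nlrc5 is higher in KCs, and L2 had the largest keratinocyte share (23.5%), while that of L3 (16.2%) was within the WT range. The part of keratinocyte RNA in the genotype difference was not tested. At the share of each library, keratinocyte RNA would make up 47.1% of the Nlrc5 count in L2, against 23.7% to 35.0% in WT and 23.8% in L3. With it subtracted and the rest scaled up, Nlrc5 was at 1187, 1475 and 1063 in WT and at 1162 and 2086 in L2 and L3. The subtraction used the KC mean of the same genotype, which for Nlrc5 was higher in LC-/- than in WT KCs. Single markers gave shares from 14.6% to 277% in L2, so the subtracted values are a description only. Without subtraction the difference of Nlrc5 was 0.43 ± 0.15 (interval 0.09 to 0.77) or 1.35-fold, at an unadjusted p of 0.0195 and an adjusted p of 0.163 by limma. No alternative called it (adjusted p from 0.0978 to 0.506). Without the library of L3 the difference was 0.21, and without that of L2 0.65. Erap1 had 1721, 1717 and 1776 in WT and 1368 and 1545 in LC-/- DETCs, both below all WT libraries. With keratinocyte RNA subtracted in the same way, again only as a description, they were at 1839, 1832 and 1932 in WT and 1479 and 1649 in LC-/- libraries. The difference was -0.26 ± 0.09 (interval -0.46 to -0.05, limma adjusted p = 0.164), and alternatives ranged from 0.0782 to 0.560. Cd1d1 had 89.5, 102 and 105 in WT and 118 and 143 in LC-/- DETCs. Both LC-/- values were above all WT values, with a difference of 0.39 ± 0.18 (interval -0.03 to 0.82, limma adjusted p = 0.293).

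The other 7 members overlapped between genotypes. H2-K1 had 21451, 23458 and 21574 counts in WT and 20493 and 29323 in LC-/- DETCs, so L2 was lowest and L3 highest of the 5 libraries. Its difference was 0.15 ± 0.16 (interval -0.23 to 0.52, limma adjusted p = 0.677). H2-D1 had 25053, 29198 and 27301 in WT and 25608 and 34851 in LC-/- DETCs (0.14 ± 0.16, limma adjusted p = 0.691). L2 was next to the lowest WT library and L3 again the highest. H2-T23 had 2407, 2878 and 2818 in WT and 2314 and 3216 in LC-/- DETCs (0.02 ± 0.15, limma adjusted p = 0.964). B2m had 19245, 25744 and 22772 in WT and 21258 and 29545 in LC-/- DETCs (0.16 ± 0.18, interval -0.26 to 0.58, limma adjusted p = 0.684). For both genes a LC-/- library was among the 2 lowest and the other was the highest. Tap1 had 1123, 1502 and 1300.2 in WT and 1119 and 1841 in LC-/- DETCs, the widest relative spread of these 7 genes (0.14 ± 0.21, interval -0.34 to 0.62, limma adjusted p = 0.764). Tap2 had 1131, 1499 and 1371 in WT and 1119 and 1637 in LC-/- DETCs (0.03 ± 0.18, limma adjusted p = 0.948). In both transporter genes L2 was lowest and L3 highest. Tapbp had 2689, 3047 and 2856 in WT and 2473 and 2885 in LC-/- DETCs (-0.10 ± 0.10, limma adjusted p = 0.651). Here L3 lay within the WT range.

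**Figure D2:**
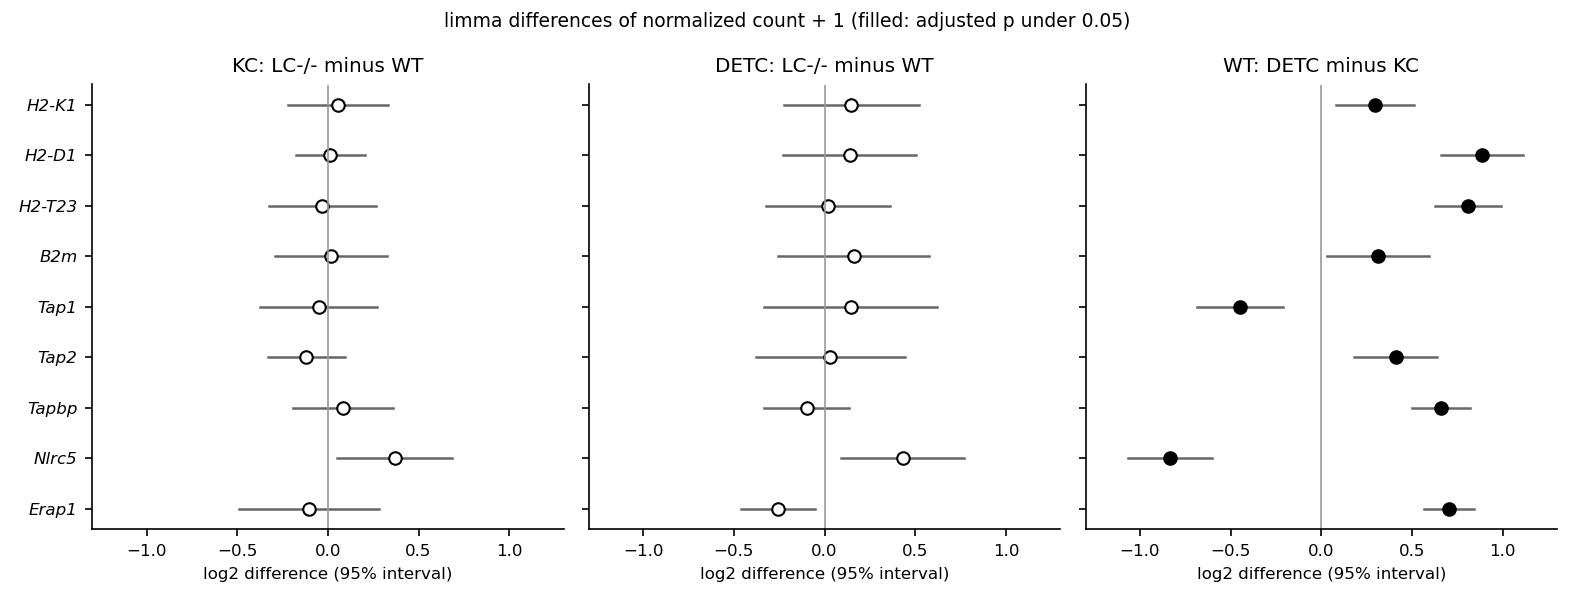
Log2 differences with 95% intervals from limma for 9 of the 10 genes, in KCs (left) and DETCs (middle) as LC-/- minus WT, and in WT animals as DETC minus KC (right). Filled points passed an adjusted p of 0.05. The intervals of Nlrc5 lie above 0 in both genotype comparisons and that of Erap1 below 0 in DETCs, no point there is filled, while all 9 are filled between cell types. Cd1d1, at 4.97 between cell types, is off this scale and not drawn.

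The 2 LC-/- DETC libraries moved most members in opposite directions. The library of L3 was the highest of the 5 DETC libraries for 8 of the 10 genes, against 18.4% of all tested genes, and Erap1 and Tapbp were the exceptions. Without L3 the difference of H2-K1 was -0.11 and without L2 it was 0.41. For Tap1 these values were -0.22 and 0.50, for B2m -0.08 and 0.40, for H2-D1 -0.08 and 0.36, for Tap2 -0.24 and 0.31, for H2-T23 -0.22 and 0.26, and for Tapbp -0.21 and 0.01. The sign of these 7 genes in LC-/- DETCs thus depended on a single library. The order from lowest to highest, L2, W1, W3, W2 and L3, was the same for 4 of the 10 genes, H2-K1, H2-T23, Tap1 and Tap2, and for 0.846% of all tested genes. It is the order of Ifng, chosen after the values were seen, so this share is a description and no test. H2-D1 and B2m differed from it by an exchange of L2 and W1.

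This order was taken from Ifng, which is no member. Cd8a, Trac and Psmb8, also no members, shared it and were named for it after their values were seen. Ifng, which encodes interferon-gamma, had 461, 1282 and 734 counts in W1, W2 and W3 and 372 and 1717 in L2 and L3. Cd8a, the CD8 co-receptor chain that binds class I, had 786, 2092 and 1716 in WT and 378 and 2825 in LC-/- libraries. Trac, the constant part of the α/β T cell receptor, had 2329, 3232 and 2817 in WT and 1622 and 3855 in LC-/- libraries. Of 7 immunoproteasome genes only Psmb8 (603 to 1051) had this order and was highest in L3. From lowest to highest library Ifng changed 4.62-fold and Cd8a 7.48-fold, while Tap1 changed 1.65-fold, B2m 1.54-fold and H2-K1 1.43-fold. Cd3e, which all T cells share, changed 1.13-fold and in another order. The part of these genes and of α/β T cells in the class I values was not tested.

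**Figure D3:**
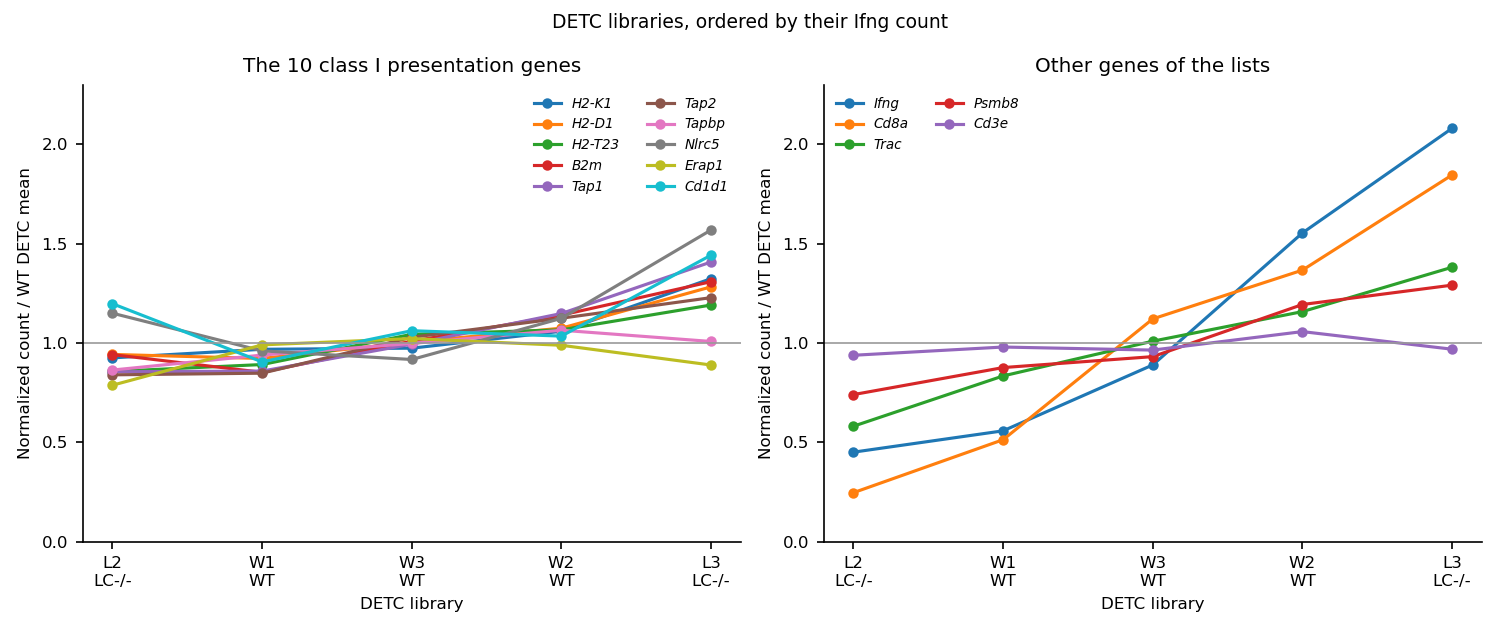
Normalized counts in the 5 DETC libraries divided by the WT DETC mean, with libraries ordered by their Ifng count, for the 10 members (left) and for Ifng, Cd8a, Trac, Psmb8 and Cd3e (right). Each line is a gene. Most members rise toward L3 on a smaller scale than Ifng and Cd8a, while Erap1 and Tapbp do not peak in L3.

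In KCs the library of mouse number L3 was also the highest for 8 of the 10 genes, with Tap2 and Cd1d1 as exceptions, against 19.4% of all tested genes. KC libraries had 0 reads of Ifng and at most 1 read of Cd8a. The library of L1 was lowest for H2-K1, H2-D1, H2-T23, Tap1, Tap2 and Tapbp. The share of all tested genes that were lowest in L1 was not computed, so this is a description of the library only.

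Whether the genotype difference itself differs between the cell types was asked with an interaction term over all 11 libraries. It passed the test for 0 of the 10 genes, against 0.798% of all tested genes (115 of 14419). DESeq2 and edgeR called 0 as well, and 0 members had an unadjusted p under 0.05 by limma. Apart from Cd1d1, with few reads in KCs, the interaction lay between -0.18 (Tapbp) and 0.19 (Tap1), and the intervals of these 9 genes reached from -0.54 to 0.75. For Nlrc5 the difference in DETCs minus that in KCs was 0.06 ± 0.20 (interval -0.38 to 0.50, limma adjusted p = 0.948).

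WT DETCs were compared with WT KCs to describe where the pathway is set in each cell type. All 10 members passed the test, 8 higher and 2 lower in DETCs. Of all tested genes 76.0% passed, 41.0% higher and 35.1% lower, so a call alone says little here and the sizes are given. The median log2 difference was 0.53 for the 10 genes and 0.07 for all tested genes.

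Cd1d1 had the largest difference. It had 6.15, 0 and 3.46 counts in WT KCs and 89.5, 102 and 105 in WT DETCs, a log2 difference of 4.97 ± 0.62 (limma adjusted p = 5.35e-05). The size of it depends on the pseudocount since the KC libraries held only 0 to 6 reads. No KC library passed a CPM of 1 for Cd1d1, so it passed the filter on low values only through DETC libraries. Its higher level in DETCs is thus partly set by that filter. H2-D1 was 1.85-fold higher in DETCs (0.89 ± 0.10, limma adjusted p = 2.82e-05) and H2-T23 1.75-fold (0.81 ± 0.08, limma adjusted p = 1.05e-05). Erap1 was 1.63-fold higher (0.71 ± 0.06, limma adjusted p = 3.65e-06) and Tapbp 1.58-fold (0.66 ± 0.07, limma adjusted p = 2.00e-05). For these 5 genes every WT DETC library was above every WT KC library. Tap2 was 1.33-fold higher (0.41 ± 0.10, limma adjusted p = 0.00465), B2m 1.24-fold (0.31 ± 0.12, limma adjusted p = 0.0436) and H2-K1 1.23-fold (0.30 ± 0.10, limma adjusted p = 0.0178). Libraries did not overlap for these 3 genes either. The call of B2m was lost in 10 of 17 alternatives, among them 5 of the 6 omissions of a library (adjusted p from 0.0685 to 0.179 by limma), and that of H2-K1 in 5 of 17. Without the DETC library of W2, B2m had an adjusted p of 0.179 and H2-K1 of 0.0791 by limma, and by edgeR B2m had 0.0587. With quantile normalization the median of all tested genes moved from 0.07 to -0.25. The differences of B2m (0.12), H2-K1 (0.08) and Tap2 (0.15) were then no longer called (limma adjusted p = 0.274, 0.281 and 0.152). All 3 lay above that median, but a difference from it was not tested.

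Nlrc5 and Tap1 went the other way. Nlrc5 was at 0.561 of the KC level in DETCs, a log2 difference of -0.83 ± 0.10 (interval -1.07 to -0.60, limma adjusted p = 4.85e-05). Tap1 was at 0.733 of it (-0.45 ± 0.11, interval -0.69 to -0.21, limma adjusted p = 0.00342). Tap1 and Tap2 encode the chains of the same transporter and lie close together on chromosome 17, with Psmb8 between them, and they differed in direction. The ratio of Tap1 to Tap2 counts was 1.59 to 1.90 in WT KCs and 0.948 to 1.0 in WT DETCs. The ratio of H2-D1 to H2-K1 was 0.811 to 0.817 in WT KCs and 1.17 to 1.27 in WT DETCs. Both ratios were formed after the values were seen. An exact permutation test between the WT cell types gave p = 0.1 for each. This is the smallest value possible with so few libraries, so the test could not have called a difference. The ratio of H2-D1 to H2-K1 in LC-/- libraries was 0.742 to 0.817 in KCs and 1.19 to 1.25 in DETCs.

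Keratinocyte RNA in the DETC libraries bears on these ratios. Nlrc5 was at 51.4% to 63.0% and Tap1 at 63.2% to 84.6% of the KC mean in WT DETC libraries, above the 14.9% to 18.0% of the keratinocyte markers. In a calculation chosen after seeing the data, that share of the KC level was subtracted and the rest was divided by 1 minus the share, to scale it to the other cells of the library. Nlrc5 then lay at 40.7% to 56.5% and Tap1 at 56.6% to 81.9% of the KC mean. H2-D1 lay at 183% to 216%, H2-T23 at 167% to 203%, Erap1 at 172% to 181% and Tapbp at 157% to 180.1%. H2-K1 lay at 122% to 135%, B2m at 108% to 149.96% and Tap2 at 116% to 159%. This scaling moves every value away from 100% by its construction, so it bears on the sizes and cannot turn a direction.

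**Figure D4:**
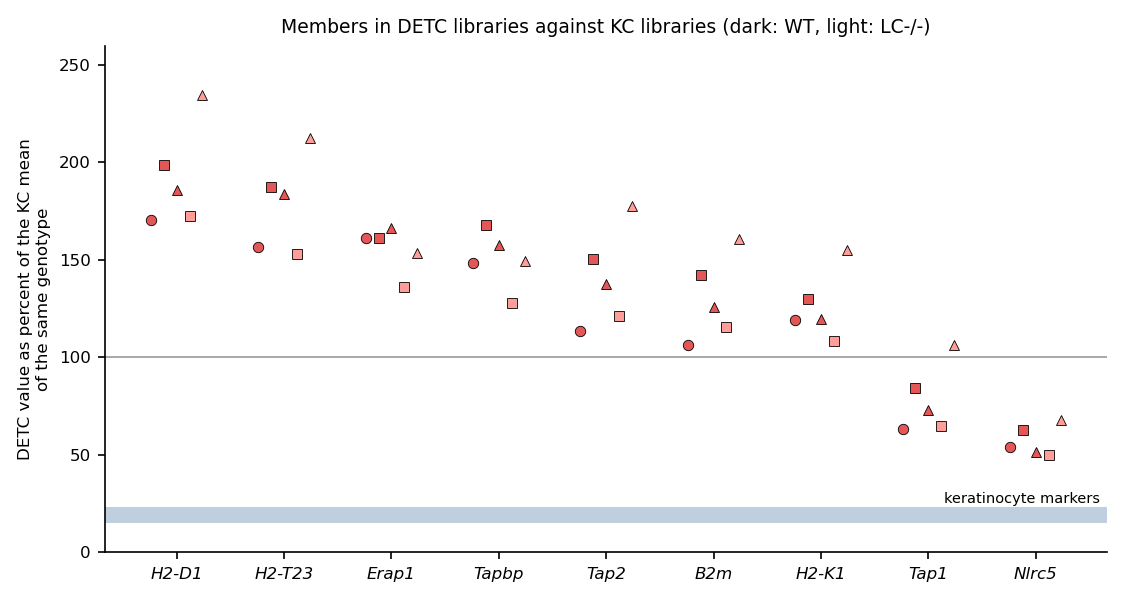
Value of 9 members in each DETC library as percent of the KC mean of the same genotype. The line marks 100% and the band the range of the keratinocyte share over the 5 libraries (14.9% to 23.5%). Nlrc5 lies below 100% in all 5 libraries and Tap1 in all but L3, both above the band. Cd1d1 is left out because of its few KC reads.

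Further genes of the pathway were taken from lists of other class I molecules, loading chaperones, immunoproteasome, trimming peptidases, regulators, CD1d lipid loading and class I receptors. Of 100 listed symbols 98 were found and 89 tested. In KCs 7 were called higher and 1 lower, which is 8.99% against 7.23% of all tested genes. In DETCs 1 was called higher and 1 lower (2.25% against 3.56%), and the interaction called 2 higher (2.25% against 0.798%). These shares are near those of all genes or rest on 2 genes.

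The called regulators of KCs belonged to the NF-κB and RFX factors that act at class I promoters, and to interferon signalling. Rela had 3269, 3017 and 3447 counts in WT and 5284, 6017 and 5372 in LC-/- KCs, with all LC-/- libraries above all WT libraries. The difference was 0.78 ± 0.07 (limma adjusted p = 0.0193). Nfkb1 had 4624, 4905 and 6002 in WT and 8307, 7962 and 8298 in LC-/- KCs (0.67 ± 0.10, limma adjusted p = 0.0314). Relb had 661 to 739 in WT and 888 to 1058 in LC-/- KCs (0.46 ± 0.08, limma adjusted p = 0.0385). Rfx5, a subunit of the complex through which Nlrc5 reaches DNA, had 516, 571 and 529.9 in WT and 694, 774 and 775 in LC-/- KCs (0.47 ± 0.07, limma adjusted p = 0.0260). Jak2, a kinase of the interferon-gamma receptor, had 2257 to 2866 in WT and 3634 to 4859 in LC-/- KCs (0.78 ± 0.14, limma adjusted p = 0.0428). These 5 are the called genes among 27 tested regulators, whose median difference was 0.01. The share called in KCs was 7.23% over all tested genes and 8.99% over all lists together, and the list of regulators was not tested as a set. DESeq2 and edgeR called all 5, whereas leaving out the KC library of W1, W2, L1 or L3 ended each of the 5 calls by limma (adjusted p from 0.0669 to 0.135). The same omissions left 15, 16, 5 and 16 of the 1042 genes called in KCs.

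In the other lists of KCs, Npepps, a cytosolic peptidase, rose by 0.24 ± 0.05 (limma adjusted p = 0.0475), and Sec61a1, part of the channel into the endoplasmic reticulum, by 0.24 ± 0.05 (limma adjusted p = 0.0462). Ctss, a lysosomal protease also found in LCs, had 4, 6 and 5 reads in WT and 0 reads in all LC-/- KC libraries (limma adjusted p = 0.00593). Its loss went together with that of Cd207, and the part of LC transcripts in it was not tested. The 13 other class I molecules tested had a median difference of -0.06 in KCs and 0.05 in DETCs, and the 7 immunoproteasome genes of -0.10 and -0.16. H2-Q7, a non-classical heavy chain, had 1989, 2169 and 1992 counts in WT and 1669, 1782 and 2529 in LC-/- KCs. In DETCs it had 2492, 2684 and 2281 in WT and 2260.3 and 4142 in LC-/- libraries, so that L3 was again highest and the genotypes overlapped in both cell types.

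In DETCs Ifnar1, a chain of the type I interferon receptor, had 2929, 2872 and 2894 counts in WT and 3915 and 3796 in LC-/- libraries (0.41 ± 0.08, limma adjusted p = 0.0340). Both LC-/- values were above the WT values, which were close to each other. Klrb1c, the NK1.1 receptor gene, had 324, 171 and 241 in WT libraries and at most 108 in both LC-/- libraries. The difference was -1.18 ± 0.25 (limma adjusted p = 0.0488). The call was lost with edgeR (adjusted p = 0.0542), and both DETC calls were lost by limma when the library of L2 or of L3 was left out (adjusted p from 0.0693 to 0.187). Of the 13 tested genes of the receptor list Klrb1c was the only one called by limma. Its place on that list does not mean that it binds class I, which was not measured.

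**Figure D5:**
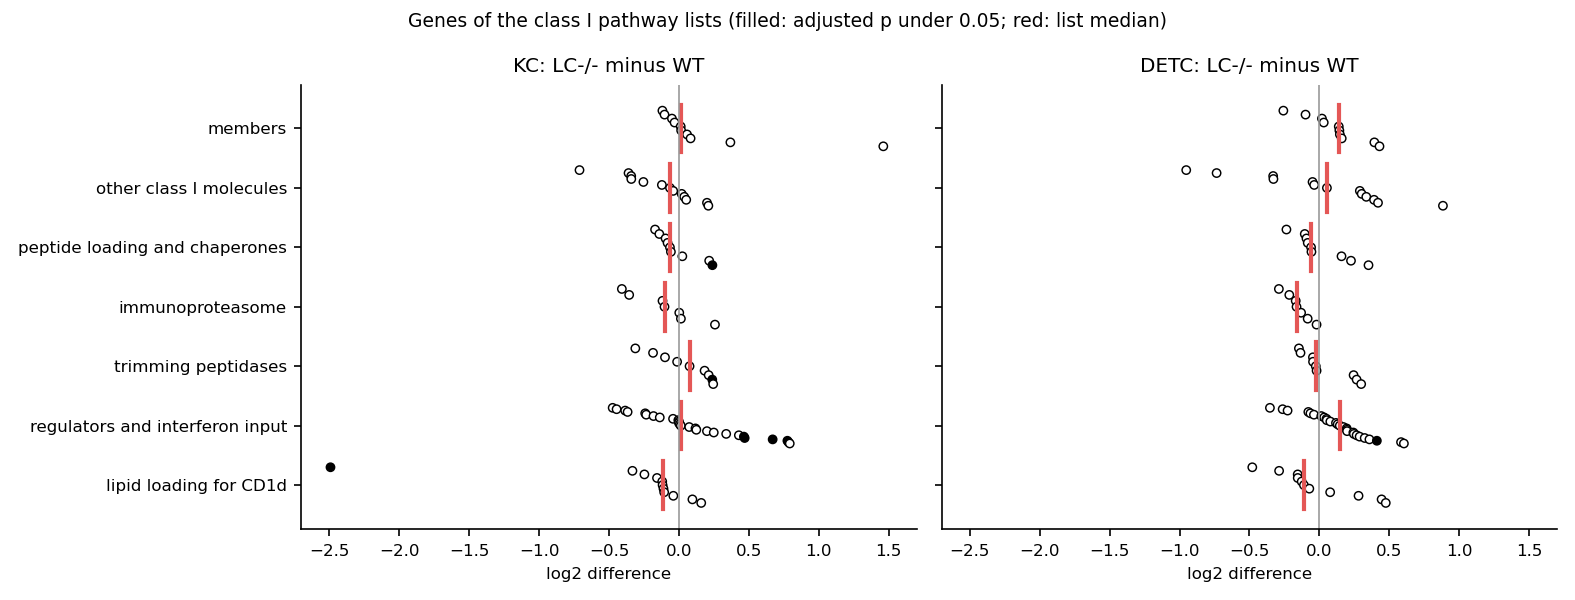
Log2 difference between LC-/- and WT of the 10 members and of the tested genes of 6 lists (receptors not drawn) in KCs (left) and DETCs (right). Points are genes, filled where the adjusted p was under 0.05, and red bars are list medians. Medians lie between -0.12 and 0.08 in KCs, where most of the filled points above 0 are regulators, and between -0.16 (immunoproteasome) and 0.15 (regulators) in DETCs.

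Between WT cell types 56 of the 89 listed genes were called higher and 15 lower in DETCs. The share called was 79.8%, near the 76.0% of all tested genes, with 62.9% higher and 16.9% lower against 41.0% and 35.1%, and the counts per list stand against the same shares. All 9 loading chaperones were higher, led by Tapbpl, a tapasin relative, with 3.18-fold (1.67 ± 0.12, limma adjusted p = 9.66e-07). Of the 7 immunoproteasome genes 2 were higher, led by Psmb10 at 2.01-fold (1.01 ± 0.15, limma adjusted p = 0.000181), and none lower. Trimming peptidases were divided, with 3 higher and 4 lower. Tpp2 was higher (0.58 ± 0.10, limma adjusted p = 0.000338), and Npepps differed by -1.56 ± 0.07 (limma adjusted p = 3.20e-08). Among regulators 16 were higher and 4 lower. Irf1, an interferon-induced activator of class I genes, was lower in DETCs together with Nlrc5 (-1.25 ± 0.10, limma adjusted p = 1.54e-06), and Ifng had 0 reads in WT KCs and 461 to 1282 counts in WT DETCs. Of other class I molecules H2-M5 had 0 or 1 read in KCs and 56.1 to 77.5 counts in WT DETCs, whereas H2-M2 was lower in DETCs (-2.36 ± 0.20, limma adjusted p = 3.19e-06). In the CD1d list Ctss was higher, with 4.10 to 5.57 counts in KCs and 383 to 499.8 in DETCs, and Mttp, which transfers lipid onto CD1d, was lower (-2.23 ± 0.29, limma adjusted p = 6.92e-05). All 13 tested receptors were higher in DETCs. Klrk1, the NKG2D receptor, had at most 1 read in WT KC libraries and 6823 to 7507 counts in WT DETCs. WT KC libraries did not bring Ifng, H2-M5, Ctss or Klrk1 past the filter on low values. Their higher level in DETCs is thus partly set by that filter.

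Genes with the most similar pattern were sought among 9850 tested genes with a mean of at least 100, after subtraction of the 4 group means. For H2-K1 these were H2-Q7 (Pearson r = 0.983 over 11 libraries), H2-D1 (0.956) and Tap1 (0.952). For Tap1 they were H2-D1 (0.986), Trim56 (0.958) and H2-K1 (0.952), and for B2m Insig1 (0.969), Sntb2 (0.951) and Psme2 (0.942). For Cd1d1, measured at few reads in KCs, they were Gstp3 (0.959), Zfp652 (0.954) and Adcy7 (0.938). The points share library depth, size factor and sorted sample, and the heavy chains may share reads. The coefficients are given as a description.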

How the data were processed

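RNA-seq of KCs and DETCs sorted from 6 mice by label number gave 11 libraries. Per the study's methods reads were trimmed (cutadapt), aligned to GRCm38 (hisat2) and assigned to genes (featureCounts) by the authors. The deposited values are a signal per gene, these counts divided by a median-of-ratios size factor by the authors, without log transformation. Whether strand was used or reads with several matches were counted is not given in the sources used here. Dividing by the smallest step of each library gave whole reads for 100% of values (tolerance 0.01 reads). Symbols, positions and exon lengths came from GENCODE mouse release 21 (GRCm38), which matched 52403 of 52550 identifiers.

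Genotypes were compared within each cell type, with an interaction over all libraries, and cell types were compared in WT. limma 3.58.1 (trend, Benjamini-Hochberg, R 4.3.3) was run on log2 of the normalized count plus 1 for 14419 genes with a CPM above 1 in at least 2 libraries, and adjustment was over all of them. The p-values measure the spread between these libraries. The scripts were tested on simulated data. edgeR 4.0.16 and DESeq2 1.42.0 on recovered reads, other pseudocounts (0.5 and 8), a minimum mean of 10, no filter, TMM and quantile normalization, a fit without trend, a fit over all libraries, a replicate block and omission of each library were alternatives, and omission of both L3 libraries and the subtraction of keratinocyte RNA (with rescaling of the rest) were added after seeing the data.

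The members and gene lists were chosen with earlier results of these data known. The named genes were all members, each listed gene called for genotype or interaction, the largest called difference per list and direction between cell types (mean of at least 10), and the 3 genes most like H2-K1, B2m, Tap1 and Cd1d1. Ifng, Cd8a, Trac, Psmb8 and Cd3e were named for their library order after their values were seen. Promoters were RefSeq windows (GRCm38.p6).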

Additional observations from a re-analysis of the deposited data

Results flagged for a closer look

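The genotype difference of 2 listed genes differed between KCs and DETCs in the interaction test, and neither is a member. For Socs3, a feedback inhibitor of cytokine signalling, the interaction was 0.832 on the log2 scale (limma adjusted p = 0.0473). It had 9871, 10435 and 9202 counts in WT and 6296, 8614 and 6522 in LC-/- KCs, and 6939, 7739.7 and 7176 in WT and 9659.7 and 9010.1 in LC-/- DETCs. For Ctss the interaction was 2.01 (limma adjusted p = 0.0299). It rested on 4 to 6 reads in WT KCs against 0 in LC-/- KCs, while DETC libraries had 383 to 499.8 counts in WT and 249 and 409 in LC-/-. With a pseudocount of 8 the adjusted p of Ctss was 0.856. Without both libraries of L3 the adjusted p was 0.123 for Ctss and 0.125 for Socs3. No member had opposite, non-overlapping genotype differences in KCs and DETCs.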

How the results depend on the processing

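No member was called for genotype or interaction in any alternative apart from Nlrc5 in KCs, which made 1 called member with DESeq2 and 1 with edgeR. The number of genes called in KCs (1042) was 340 without a filter, 1752 with DESeq2 and 1783 with edgeR, and 5 to 721 with a library left out (5 without L1). In DETCs (514) it was 185 without a filter, 148 with quantile normalization, 1079 with DESeq2, 959 in the fit over all libraries and 35 to 590 with a library left out (35 without L2). For DETCs a limma fit lacking the trend gave 0 calls, against 483 by edgeR, with an unadjusted p under 0.05 for 1554 genes in the higher and 853 in the lower direction. For the interaction (115) it was 22 without the trend, 312 with DESeq2, 63 without both L3 libraries and 32 to 138 with a library left out. The cause of these changes was not tested. Quantile normalization moved the share of higher calls from 74.4% to 63.1% in KCs, from 87.9% to 72.3% in DETCs (74.1% without a filter), from 77.4% to 59.3% for the interaction and from 53.9% to 41.3% between cell types.

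Small differences changed sign. With quantile normalization the log2 difference in KCs was -0.11 for H2-K1, -0.13 for H2-D1, -0.15 for B2m and -0.025 for Tapbp. In DETCs it was -0.14 for H2-K1, -0.16 for H2-D1, -0.13 for H2-T23 and for B2m and -0.062 for Tap2, and the interaction was -0.027 for H2-K1, -0.033 for H2-D1 and -0.0052 for H2-T23. TMM gave -0.0245 for H2-T23 and -0.012 for Tap2 in DETCs, and edgeR -0.0078 for H2-T23. Without both L3 libraries the interaction was -0.063 for H2-K1, -0.034 for H2-D1, -0.091 for H2-T23, -0.037 for Tap1, -0.038 for Tap2 and -0.079 for Nlrc5. With a library left out the KC difference ranged from -0.048 to 0.14 for H2-K1, -0.049 to 0.074 for H2-D1, -0.13 to 0.092 for H2-T23, -0.11 to 0.10 for B2m, -0.18 to 0.048 for Tap1, -0.028 to 0.17 for Tapbp and -0.25 to 0.047 for Erap1. In DETCs it ranged from -0.11 to 0.41 for H2-K1, -0.083 to 0.36 for H2-D1, -0.22 to 0.26 for H2-T23, -0.077 to 0.40 for B2m, -0.22 to 0.50 for Tap1, -0.24 to 0.31 for Tap2 and -0.21 to 0.012 for Tapbp. The interaction ranged from -0.17 to 0.35 for H2-K1, -0.10 to 0.35 for H2-D1, -0.19 to 0.29 for H2-T23, -0.093 to 0.38 for B2m, -0.17 to 0.55 for Tap1, -0.12 to 0.42 for Tap2 and -0.16 to 0.29 for Nlrc5. Between cell types no member changed direction, and 154 alternative values stayed called while 16, all of B2m, H2-K1 or Tap2, were no longer called.

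KC and DETC libraries share numbers in the labels. Their deviations from the group means correlated with 0.156 (L2), 0.128 (L3), -0.0586 (W1), 0.0736 (W2) and 0.12 (W3) over 14039 genes. Such deviations sum to 0 within each small group, so these values cannot show whether a shared number means a shared animal. The main fits were planned without pairs, and a block on the number was an alternative. With a replicate block the interaction called 27 genes and 0 members, with -0.073 for H2-T23 and -0.042 for Nlrc5, and 10873 genes were called between cell types. L1 has no DETC library and adds nothing to the blocked interaction. Cd1d1 had below 10 reads in every KC library, and its KC values are limited by that depth.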
